A study of Rattus norvegicus with 97 samples.

Results

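Grm2 and Grm3 encode the group II metabotropic glutamate receptors, mGlu2 and mGlu3. They were chosen by their gene symbols in the platform annotation, which names 1 probe set for each: 1370998_at for Grm2 and 1388189_at for Grm3. They are 2 of the 14217 genes to which a probe set with a single symbol is assigned, and 2 of the 31099 probe sets on the array. Their values were examined in 97 rats, 1 array per animal, in RNA of the shell of the nucleus accumbens, the ventral striatal region through which reward shapes behaviour. Both receptors couple to inhibitory G proteins of the Gi/o class, which lower adenylyl cyclase activity. On glutamate terminals they act as autoreceptors that reduce glutamate release. mGlu3 is also made by astrocytes, and it responds to the dipeptide N-acetylaspartylglutamate (NAAG) released with other transmitters. In the accumbens, group II receptors on the terminals of cortical, thalamic and amygdalar neurons limit excitatory drive, and agonists of these receptors lower alcohol seeking in rodents.

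The animals belonged to 5 pairs of rat lines, each pair bred in opposite directions for alcohol intake. The preferring lines were P, HAD1, HAD2, AA and sP, and their non-preferring counterparts were NP, LAD1, LAD2, ANA and sNP. LAD1, sP and sNP were represented by 9 animals each and the other 7 lines by 10. The labels name no transgene, drug, sex, age or alcohol exposure. A line is a single bred population, so that differences between the lines of a pair include those fixed by breeding without regard to alcohol. The comparisons ask whether the receptors' transcripts differ between the lines of a pair and whether they do so alike in lines bred apart.

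Values are deposited log2 RMA signals (robust multi-array average, a summary of all probes of a probe set), on which 1 unit is a doubling. Array medians lay between 7.82 and 8.02. The Grm2 probe set was dim, with a mean of 6.72 over all arrays, above 34% of the probe sets. Its differences are therefore those of a weak signal. The Grm3 probe set was bright, with a mean of 11.64, above 93% of the probe sets. Differences are preferring minus non-preferring with the standard error from limma. A difference was called at a Benjamini-Hochberg adjusted p under 0.05 over 31042 probe sets. On the genes that best part the lines of their pair, 8 arrays lay away from the line on their label: P 9, NP 9, HAD1 28, LAD1 37, AA 19, ANA 20, sP 4 and sNP 4. They kept their labels, they are called departing arrays here, and results are given with and without them. Of them, NP 9, HAD1 28, LAD1 37, AA 19 and ANA 20 lay near the other line of their pair. P 9, sP 4 and sNP 4 lay between the lines. Whether labels had been exchanged was not tested, so results over all arrays may include mislabelled animals. In bulk tissue, fewer cells of a type and less RNA per cell cannot be told apart. Each receptor was read through 1 probe set. Whether sequence differences between lines under its probes changed the signal was not tested.

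Grm2 was lower in sP rats than in sNP rats, and the animals of these lines did not overlap. The 9 sP animals ran from 6.13 through a median of 6.47 to 6.74. The 9 sNP animals ran from 6.79 through a median of 7.09 to 7.16. The lowest sNP animal thus lay just above the highest sP animal, which was the departing array sP 4. The difference was -0.59 ± 0.0797, 1.51-fold (adjusted p = 0.000132, limma), where 12.9% of all probe sets were called in this pair and 0.49% had lines without overlap. By p-value, Grm2 was at rank 102 of the 31042 probe sets. Without sP 4 and sNP 4 the difference was -0.64 ± 0.0801 (adjusted p = 6.53e-05, with 15% of all probe sets called).

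Grm2 was also lower in HAD1 than in LAD1. The 10 HAD1 animals ran from 6.15 through 6.48 at the median to 6.84, and the 9 LAD1 animals from 6.52 through 6.96 to 7.24. The ranges overlapped, but all 10 HAD1 animals lay below the LAD1 median. The difference was -0.45 ± 0.105 (adjusted p = 0.0346, limma; 1.2% of all probe sets were called in this pair). Without HAD1 28 and LAD1 37 it was -0.51 ± 0.107 (adjusted p = 0.0067; 3.98% called). The call was close to its threshold: it was lost on leaving out any of 13 of the 19 animals in turn, HAD1 21, 22, 23, 25, 27, 29 or 30 or LAD1 32, 33, 34, 35, 38 or 39, with adjusted p up to 0.0816. It was also lost in a single fit over all 10 lines (adjusted p = 0.127, limma). The error of the difference was 0.155 in that fit, which pools the spread of all lines, including AA (SD 0.834).

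In AA and ANA rats 1 animal decided the Grm2 result. AA 17 had a value of 8.78, the highest of all 97 animals, whereas the other 9 AA animals ran from 5.84 through a median of 6.29 to 6.73. The 10 ANA animals ran from 6.45 through 6.69 to 6.88. With AA 17 the difference was -0.14 ± 0.246 (adjusted p = 0.9999, limma; 2.35% of all probe sets were called). Without AA 17 it was -0.39 ± 0.0969, lower in AA, and passed the test (adjusted p = 0.0355; 664 of the 31042 probe sets were called). Leaving out AA 19 and ANA 20 as well gave -0.42 ± 0.103 (adjusted p = 0.022; 4.22% called), whereas leaving out only these departing arrays gave -0.14 ± 0.271 (adjusted p = 0.917; 4.44% called). AA 17 was not a departing array and was set aside for its Grm2 value, the value tested. Leaving it out also shrinks the error, so the fits without it are not independent evidence of a difference.

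AA 17 was also set apart by transcripts of glutamate neurons and of other cell types. Slc17a7, the vesicular glutamate transporter of cortical neurons, was at 10.74 in AA 17 and between 5.28 and 6.43 in the other AA animals. Neurod6, a transcription factor of cortical excitatory neurons, was at 9.75 against 4.71 to 5.39. Nrn1 was at 12.93 against 7.52 to 9.78, and Neurod2 at 9.38 against 7.67 to 8.52. Of the 7 measured markers of cortical and other glutamate neurons, these 4 lay above all other AA animals, while Slc17a6, Tbr1 and Cux2 lay within their range. The mean of the 7 markers was 9.29 in AA 17 and 6.58 to 7.45 in the others. The GABA interneuron mean was also above the other AA animals (9.70 against 8.30 to 9.29). Its marker Vip was at 10.9 in AA 17, and 7.48 was the highest Vip value of the other AA animals. The excess of AA 17 over their mean was 4.69 for Vip and 0.842 for the mean of these markers. Below them were the means of cholinergic interneurons (8.11 against 8.93 to 10.2), oligodendrocytes (11.94 against 12.18 to 13.01), precursors and microglia. The spiny neuron, pallidal and septal, astrocyte and endothelial means lay within their range. By the excess of AA 17 over the other AA animals, Grm2 was at rank 32 of 20565 probe sets with a single, not provisional gene symbol, a list led by Slc17a7, Neurod6, the peptide genes Vip and Cck, and Nrn1. Grm3 in AA 17, at 11.54, lay within the range of the other AA animals. An unplanned fit with AA 17 kept took the mean of the glutamate neuron markers as a covariate. Its Grm2 difference in AA/ANA was -0.36 ± 0.130 (adjusted p = 0.228, limma). AA 17 lay far above all other animals of the pair on both the covariate and Grm2. This fit therefore cannot tell whether the glutamate neuron markers account for the Grm2 value of AA 17.

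Grm2 did not pass the test in the other pairs. In P rats it ran from 6.60 through 7.28 to 7.87, and in NP rats from 6.62 through 7.04 to 7.26. The lines overlapped, with 7 of 10 P animals above the NP median. The difference was 0.28 ± 0.125, with a 95% interval from 0.02 to 0.54 (adjusted p = 0.554, limma; 1.05% of all probe sets were called in P/NP). Without P 9 and NP 9 it was 0.26 ± 0.135 (adjusted p = 0.656; 661 of the 31042 probe sets were called). Its sign is opposite to that in sP/sNP and HAD1/LAD1. The mean of the glutamate neuron markers was 7.24 in P and 7.04 in NP. In an unplanned fit with that mean as a covariate the Grm2 difference was 0.14 ± 0.0705 (adjusted p = 0.364, limma). With the spiny minus pallidal marker mean as a covariate it was 0.25 ± 0.0738 (adjusted p = 0.0746). HAD2 animals ran from 6.05 through 6.46 to 6.88 and LAD2 animals from 6.29 through 6.40 to 6.64. Their difference was 0.03 ± 0.0871, with a 95% interval from -0.15 to 0.21 (adjusted p = 0.954; 4.6% called in HAD2/LAD2).

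**Figure D1:**
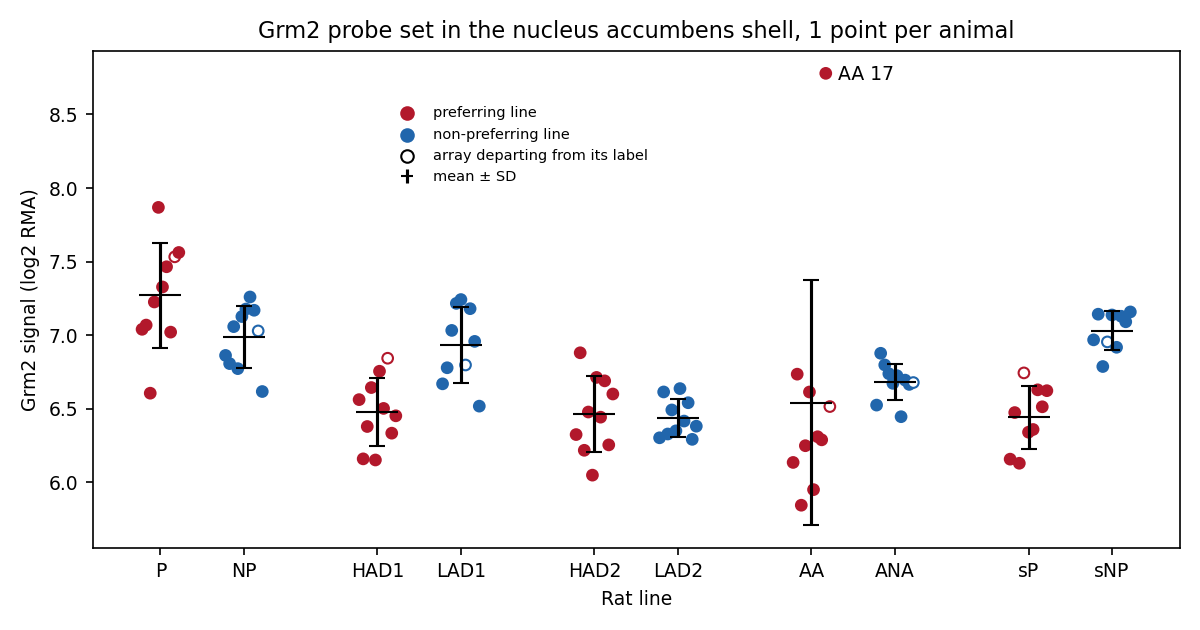
Grm2 signal (log2 RMA, vertical axis) in each animal of the 10 lines (horizontal axis), with the mean and SD of each line; open points are the departing arrays. The 9 sP animals (6.13 to 6.74) lie below the 9 sNP animals (6.79 to 7.16), and AA 17 stands at 8.78 above all other animals.

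Grm3 passed the test only in sP/sNP among the 5 pairs. The 9 sP animals ran from 11.15 through a median of 11.51 to 11.68, and the 9 sNP animals from 11.55 through 11.80 to 11.97. The ranges overlapped, and all 9 sP animals lay below the sNP median. The difference was -0.29 ± 0.0728 (adjusted p = 0.0225, limma, beside 12.9% of all probe sets called). Without sP 4 and sNP 4 it was -0.33 ± 0.0762 (adjusted p = 0.014, limma, with 15% of all probe sets called). The call was lost without the animal sP 2 (adjusted p = 0.0513).

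In the other pairs the Grm3 differences were small and their intervals included 0. P animals ran from 11.14 through 11.69 to 11.85 and NP animals from 11.18 through 11.72 to 12.05, a difference of -0.08 with a 95% interval from -0.33 to 0.17. HAD1 animals ran from 11.59 through 11.71 to 11.85 and LAD1 animals from 11.39 through 11.72 to 12.13, a difference of -0.03 with an interval from -0.17 to 0.12. HAD2 animals ran from 11.43 through 11.63 to 11.82 and LAD2 animals from 11.50 through 11.74 to 11.85, a difference of -0.07 with an interval from -0.19 to 0.04. AA animals ran from 11.40 through 11.53 to 11.71 and ANA animals from 11.17 through 11.51 to 11.78, a difference of 0.02 with an interval from -0.11 to 0.16. Adjusted p-values in these 4 pairs lay between 0.648 and 0.9999 (limma). Of the 4 intervals, only that of P/NP included the size of the sP/sNP difference.

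**Figure D2:**
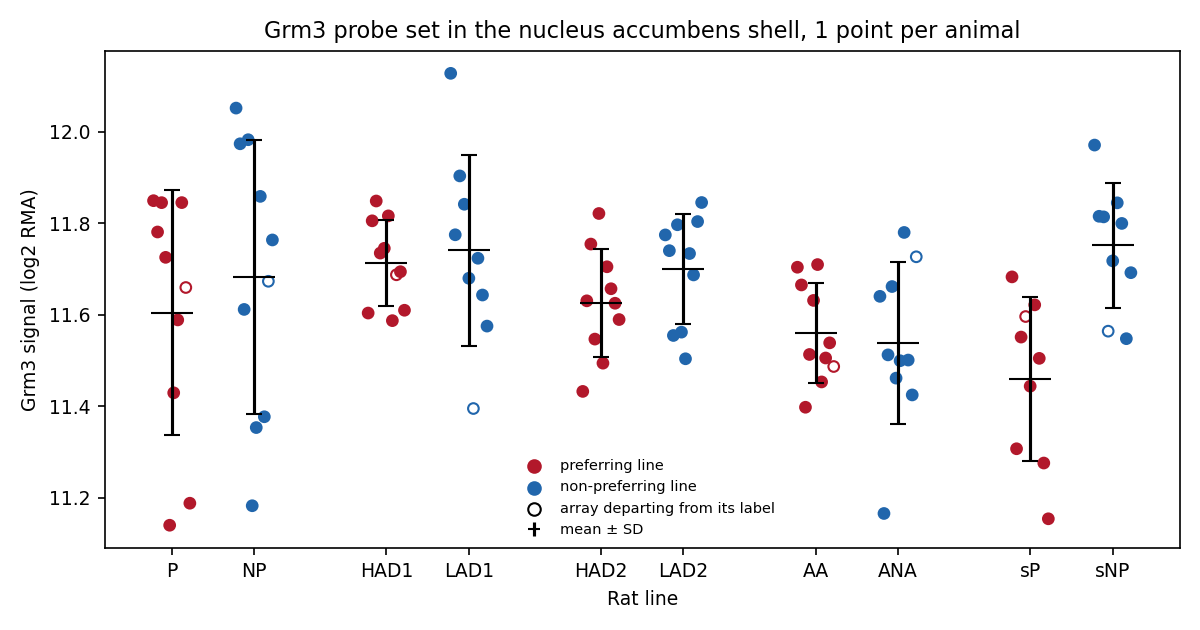
Grm3 signal (log2 RMA, vertical axis) in each animal of the 10 lines (horizontal axis), with the mean and SD of each line; open points are the departing arrays. The sP animals (11.15 to 11.68) overlap the lower part of the sNP range (11.55 to 11.97), and the P and NP animals spread most widely.

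The 5 differences of Grm2 were not equal (F = 5.31, adjusted p = 0.00955, limma; 11.7% of all probe sets were called in this test). Their unweighted average was -0.17 ± 0.0685, lower in the preferring line in 3 of 5 pairs, and missed the threshold (adjusted p = 0.174; 3.37% called). Without AA 17 the average was -0.22 ± 0.0470 and passed (adjusted p = 0.000765, limma; 3.35% called), and the F value for equality rose to 12.3. That fit was added after the Grm2 value of AA 17 had been seen, so its p-value is not independent evidence. Breeding acts on lines and not on single animals. When the 5 pairwise line differences served as replicates, the error of the Grm2 average was 0.130 (adjusted p = 0.948), and the same fit called 0 of the 31042 probe sets, with 1214 at an unadjusted p under 0.05 (limma). For Grm3 the average was -0.09 ± 0.0370 (adjusted p = 0.209), with a negative sign in 4 of 5 pairs, and the test of equality gave F = 2.02 (adjusted p = 0.315). A test that misses its threshold does not show that the Grm3 differences were alike.

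**Figure D3:**
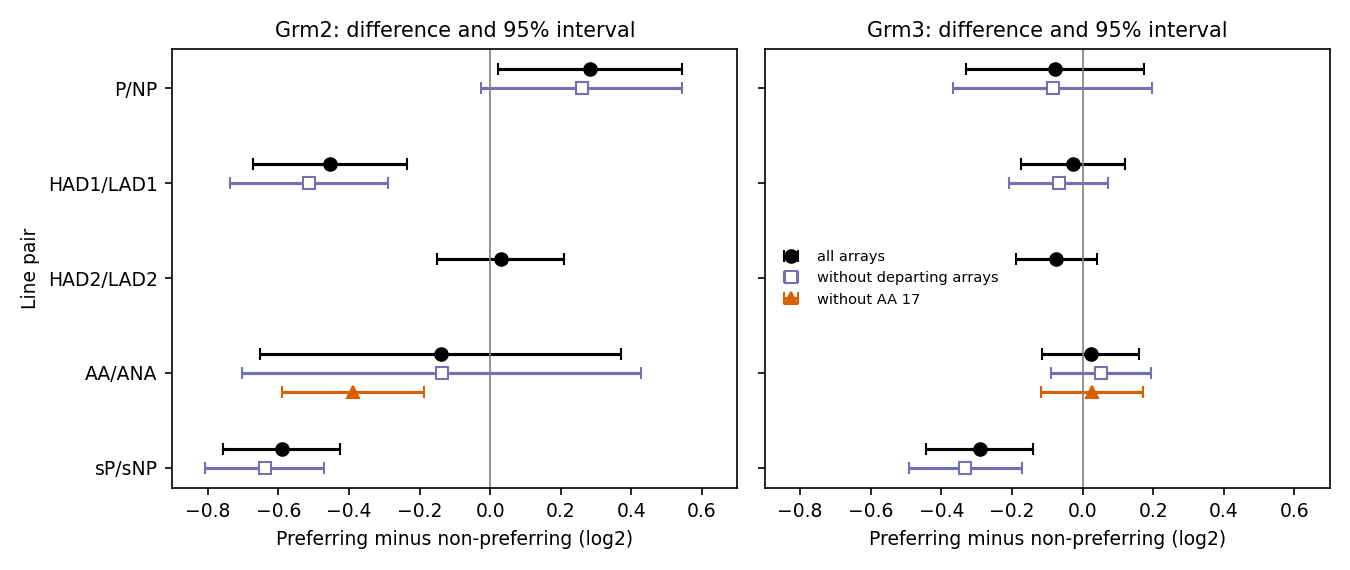
Preferring minus non-preferring difference (log2, horizontal axis) of Grm2 and Grm3 in each line pair (vertical axis), with 95% intervals, for all arrays, without the departing arrays, and without AA 17. Grm2 lies to the left of 0 in HAD1/LAD1 (-0.45) and sP/sNP (-0.59), and in AA/ANA its interval clears 0 only without AA 17; Grm3 clears 0 only in sP/sNP.

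By line mean, Grm2 was highest in P (7.27 ± 0.358, SD, n = 10), then sNP (7.03 ± 0.130, n = 9), NP (6.99 ± 0.211, n = 10) and LAD1 (6.93 ± 0.258, n = 9). ANA (6.68 ± 0.124, n = 10), AA (6.54 ± 0.834, n = 10), HAD1 (6.48 ± 0.232, n = 10), HAD2 (6.46 ± 0.259, n = 10), sP (6.44 ± 0.212, n = 9) and LAD2 (6.43 ± 0.128, n = 10) followed. Of the 9 steps between neighbours in this order, only that from LAD1 to ANA (0.25) exceeded the pooled SD of its lines (0.198). The place of AA rested on AA 17: without it AA was at 6.29 ± 0.295 (n = 9), the lowest of the 10 lines. Grm3 ran from 11.75 ± 0.136 in sNP (n = 9) to 11.46 ± 0.179 in sP (n = 9), a range of 0.292 against 0.837 for Grm2. The order between was LAD1, HAD1, LAD2, NP, HAD2, P, AA and ANA, and no step exceeded its pooled SD. sP and sNP thus lay at opposite ends for Grm3. Orders across pairs carry a further limit, because the log2 difference between the 3' and 5' Gapdh control probe sets, which rises with RNA breakage or short labelled products, was 4.71 in HAD1, 4.89 in LAD1, 2.91 in HAD2 and 2.83 in LAD2 and under 1 in the other lines.

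Markers of cell types also differed between sP and sNP. Of 11 measured markers of spiny neurons, the main neurons of the striatum, 10 were called lower in sP (limma), among them Drd1 (-0.94) and Adora2a (-1.30), where 12.9% of all probe sets were called. Their mean was 10.24 to 12.41 in sP and 11.75 to 12.67 in sNP. Of 7 markers of the pallidum, septum and nearby basal forebrain, 5 were called higher in sP, with a mean of 9.20 to 10.07 in sP and 8.50 to 9.64 in sNP. Of 11 astrocyte markers, 6 were called higher in sP, with a mean of 11.53 to 11.79 against 11.27 to 11.67. Of 7 glutamate neuron markers, limma called 0 in sP/sNP, with 1 at an unadjusted p under 0.05. Without sP 4 and sNP 4 it called 1, beside 15% of all probe sets. Their mean was 7.08 to 7.70 in sP and 6.73 to 7.43 in sNP. The differences of these markers were uneven, from -0.07 for Slc17a7 to 1.305 for Slc17a6. Their median was 0.0378, with 4 positive and 3 negative.

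With these markers as covariates, Grm2 kept its call in sP/sNP and Grm3 did not; whether the receptors differ in this was not tested. With the spiny minus pallidal marker mean as a covariate, Grm2 was at -0.68 ± 0.0983 (adjusted p = 0.000719, limma) and Grm3 at -0.09 ± 0.0607 (adjusted p = 1). A fit with the glutamate neuron markers as a covariate was not planned. It put Grm2 at -0.69 ± 0.0831 (adjusted p = 7.12e-05, limma) and Grm3 at -0.17 ± 0.0687 (adjusted p = 0.362). The Grm3 call was also lost with the Gapdh 3' to 5' difference as a covariate (-0.25, adjusted p = 0.0649). The spiny minus pallidal mean itself differed between sP and sNP by -1.54, so the covariate and the line share much of their spread.

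Across animals, after each line's mean was subtracted, both receptors were set against 10 marker means, 20 relations in all, with permutation of animals within lines and Benjamini-Hochberg adjustment over the 20. Grm2 rose with the glutamate neuron markers (Pearson r = 0.628, permutation p = 2e-05, adjusted p = 6.67e-05; Spearman rho = 0.507, permutation p = 2e-05, adjusted p = 5.71e-05; n = 97). Without the 2 animals farthest from the median of the marker mean r was 0.509. Within pairs r was 0.862 in P/NP, 0.331 in HAD1/LAD1, 0.411 in HAD2/LAD2, 0.868 in AA/ANA and 0.499 in sP/sNP. The cortical marker Slc17a7 did not follow the marker mean in all P rats. P 1 and P 2 had the highest Slc17a7 of their line, with Grm2 below the line mean (-0.232 and -0.203). P 5 had the largest Grm2 excess over that mean (0.597), with Slc17a7 at 6.108. In P 9 both were high, with Slc17a7 at 6.669 and a Grm2 excess of 0.261. Which of the markers carried the relation was not tested. The relation in AA/ANA rested on AA 17: without that animal, with the AA mean taken over the other 9, r in AA/ANA was 0.0872 (19 animals) and the r over all lines was 0.434 (rho = 0.462, adjusted permutation p = 0.000286 and 8.57e-05, n = 96). Grm2 was not related to these markers alone. It also rose with the GABA interneuron markers (r = 0.449, rho = 0.377, adjusted permutation p = 0.00146 and 0.00078; 0.27 without the 2 farthest) and fell with the spiny neuron markers (r = -0.286, rho = -0.341, adjusted permutation p = 0.0157 and 0.00162; -0.218 without the 2 farthest). Within pairs r with the GABA interneuron markers was 0.316 to 0.561, and with the spiny neuron markers it was -0.804 in P/NP and between -0.27 and 0.0102 in the others. With the pallidal and septal markers rho was 0.365 (adjusted permutation p = 0.001), but r was 0.194 (adjusted permutation p = 0.182). That r was 0.819 in P/NP and between -0.316 and 0.396 in the others. With the cholinergic interneuron markers r was 0.804 in P/NP and between -0.606 and 0.317 in the others. Without AA 17, 8 of the 10 relations of Grm2 passed the adjusted permutation test of r, with the spiny neuron markers at -0.431 and the pallidal and septal markers at 0.429.

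Grm3 rose with the spiny neuron markers (r = 0.708, permutation p = 1e-05, adjusted p = 4e-05; rho = 0.678, permutation p = 1e-05, adjusted p = 3.33e-05; n = 97), where 1e-05 is the smallest p these permutations can give. Without the 2 farthest animals r was 0.716, and within pairs it was 0.846 in P/NP, 0.337 in HAD1/LAD1, 0.605 in HAD2/LAD2, 0.498 in AA/ANA and 0.748 in sP/sNP. Grm3 fell with the markers of pallidum, septum and basal forebrain (r = -0.749, rho = -0.736, adjusted permutation p = 4e-05 and 3.33e-05; -0.723 without the 2 farthest), with r between -0.861 and -0.375 within pairs. Grm3 also fell with the astrocyte markers (r = -0.388, rho = -0.401, adjusted permutation p = 0.000844 and 4e-04; -0.428 without the 2 farthest), with r between -0.619 and -0.011 within pairs. Of the 10 relations of Grm3, 9 passed the adjusted test of r, and only the spiny neuron markers had a positive r.

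**Figure D4:**
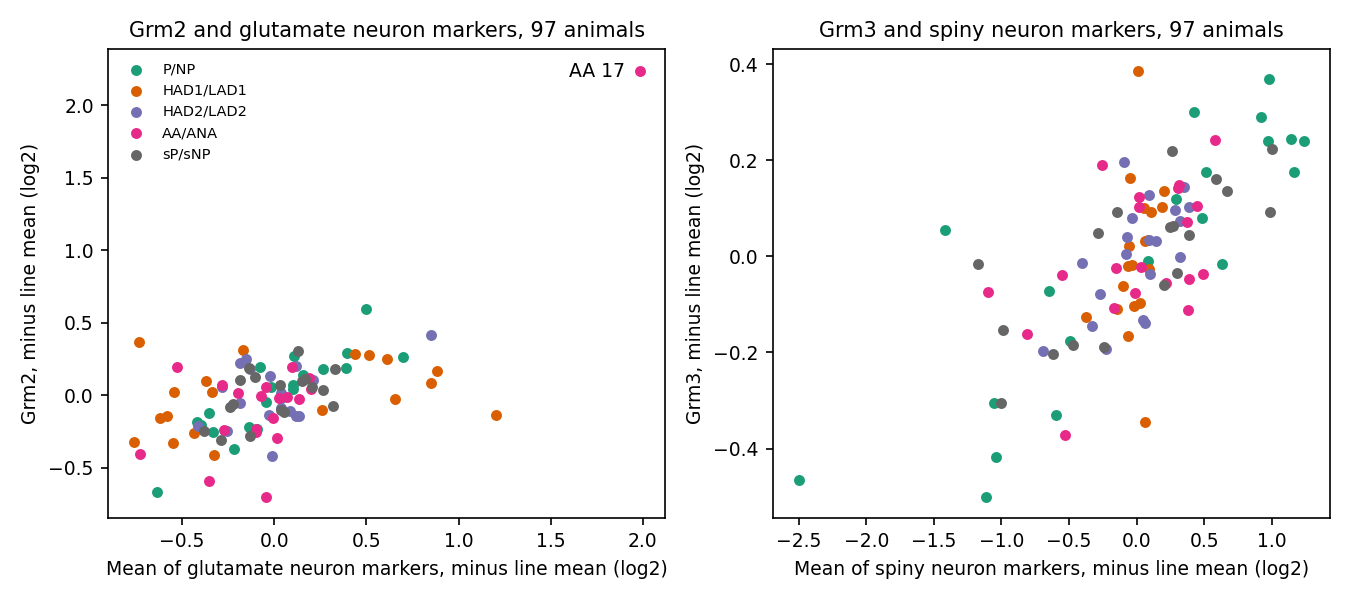
Left, Grm2 against the mean of the glutamate neuron markers, and right, Grm3 against the mean of the spiny neuron markers, each in log2 units after subtraction of the line mean, with 1 point per animal coloured by line pair (n = 97). Both clouds rise to the right (r = 0.628 and 0.708); AA 17 stands alone at the upper right for Grm2, where r is 0.434 without it.

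The 5 genes whose values were most like Grm2 over the 97 animals, by Pearson correlation after subtraction of line means, were Rtn4r (0.761), the Nogo receptor, Nr4a2 (0.711), an orphan nuclear receptor, Ptpn3 (0.708), a tyrosine phosphatase, Bdnf (0.692), a neurotrophin, and Adcyap1 (0.686), which encodes the peptide PACAP. These values rested in part on few animals: without the 2 farthest they lay between 0.397 and 0.585. Without AA 17 the list changed to P2rx5 (0.581), an ATP-gated channel, Tmem219 (0.559), P3h4 (0.555), Tspan17 (0.531) and Cfap144 (0.53). For Grm3 the most alike genes were Lrrc8b (0.818), a subunit of volume-regulated anion channels, Lancl1 (0.783), Mef2a (0.781), a transcription factor, Dgat2 (0.778), an enzyme of triglyceride synthesis, and Gramd2b (0.778). The Grm3 values stayed between 0.746 and 0.788 without the 2 farthest animals, and the same 5 genes led without AA 17. Without AA 17 and the departing arrays (88 animals) both lists changed: Rln1 (0.638), P2rx5, Bdnf, Rtn4r and Cfap144 led for Grm2, and Mgll (0.819), Alcam (0.819) and Mast3 (0.818) joined Lrrc8b and Mef2a for Grm3.

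Of the other metabotropic glutamate receptors, 5 of 6 were measured. Grm5, the postsynaptic group I receptor of spiny neurons, was lower in HAD1 (-1.12 ± 0.225, adjusted p = 0.0168, limma) and in HAD2 (-2.57 ± 0.189, adjusted p = 3.16e-09) than in the non-preferring line. These were 1 of 5 called in each pair, where 1.2% and 4.6% of all probe sets were called. The Grm5 values are those of the brighter of its 2 probe sets, and the other is not reported here. In sP/sNP 3 of 5 were called, beside 12.9% of all probe sets. They are group III receptors, which are also presynaptic, and went in both directions: Grm4 (-0.52, adjusted p = 0.0389) and Grm7 (-0.47, adjusted p = 0.0391) were lower and Grm8 (0.18, adjusted p = 0.0454) was higher. In P/NP and AA/ANA, with 1.05% and 2.35% of all probe sets called, limma called 0 of the 5, and 0 had an unadjusted p under 0.05.

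Of the genes that supply NAAG and extracellular glutamate, 13 of 14 were measured. In sP/sNP 2 of 13 were called, a share (15.4%) near the 12.9% of all probe sets. Rimkla (0.55 ± 0.159, adjusted p = 0.0362, limma) and Rimklb (0.80 ± 0.211, adjusted p = 0.0285), which encode the synthases that make NAAG, were both higher in sP. Folh1, the peptidase that breaks NAAG down, was at 0.25 ± 0.127 (adjusted p = 0.183), and Slc7a11, the cystine-glutamate exchanger whose glutamate reaches group II receptors, at -0.43 ± 0.144 (adjusted p = 0.0551). In P/NP, HAD1/LAD1, HAD2/LAD2 and AA/ANA limma called 0 of 13, with 0, 2, 4 and 3 at an unadjusted p under 0.05. The shares called over all probe sets were 1.05%, 1.2%, 4.6% and 2.35%. Without the departing arrays Rimklb was called higher in HAD1 (0.28, adjusted p = 0.0462, limma), Slc1a1, a neuronal glutamate transporter, in AA (0.19, adjusted p = 0.0468) and Slc17a6 in sP (1.46, adjusted p = 0.0461). In these fits 3.98%, 4.44% and 15% of all probe sets were called.

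Of the genes of Gi/o transduction, 27 of 31 were measured. In sP/sNP 5 were called higher and 5 lower, beside 12.9% of all probe sets called. Higher in sP were the G protein gamma subunits Gng2 (0.44) and Gng3 (0.30) and the adenylyl cyclases Adcy2 (0.54), Adcy6 (0.42) and Adcy8 (0.93). Lower were the beta subunits Gnb4 (-0.40) and Gnb5 (-0.28), the gamma subunits Gng7 (-0.93) and Gng10 (-0.24), and Adcy5 (-0.85), the main adenylyl cyclase of the striatum. Adjusted p-values of these 10 lay between 0.0292 and 0.0497 (limma). In HAD2/LAD2 Gnb4 (0.31, adjusted p = 0.00575) and Adcy9 (0.59, adjusted p = 0.0115) were higher, and in AA/ANA Gnb1 was higher (0.56, adjusted p = 0.00022). These were 2 and 1 of 27, beside 4.6% and 2.35% of all probe sets called. In P/NP and HAD1/LAD1 limma called 0 of 27, with 1 and 2 at an unadjusted p under 0.05, beside 1.05% and 1.2% of all probe sets called. Without the departing arrays Adcy9 was called higher in P (0.98, adjusted p = 0.0181, limma), beside 661 of the 31042 probe sets. In sP/sNP 13 rather than 10 were then called, beside 15% of all probe sets.

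Of 17 regulators and anchors of these receptors, all measured, 6 were called in sP/sNP (limma), beside 12.9% of all probe sets. The receptor kinase Grk6 (0.26, adjusted p = 0.0255) and the arrestin Arrb2 (0.29, adjusted p = 0.0369) were higher in sP. The scaffold Tamalin (-0.31, adjusted p = 0.0344) and the regulators of G protein signalling Rgs2 (-0.36, adjusted p = 0.0416), Rgs9 (-1.004, adjusted p = 0.043) and Rgs14 (-0.77, adjusted p = 0.0319) were lower. Rgs9 is also 1 of the spiny neuron markers. In HAD1/LAD1 Ppm1a, which encodes a phosphatase that binds and dephosphorylates mGlu3, was higher (0.72 ± 0.161, adjusted p = 0.0299, limma). It was 1 of 17 called, beside 1.2% of all probe sets. In P/NP, HAD2/LAD2 and AA/ANA limma called 0 of 17, with 2 at an unadjusted p under 0.05 in each, where 1.05%, 4.6% and 2.35% of all probe sets were called.

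The chromosomal neighbours of Grm2 were examined after its values had been seen, as the 5 nearest measured genes on each side in the gene order of the rat assembly GRCr8. In HAD1/LAD1, where Grm2 was called, limma called 0 of the 10 neighbours (2 at an unadjusted p under 0.05), beside 1.2% of all probe sets. In sP/sNP it called 5 of 10, beside 12.9% of all probe sets. Rrp9, the gene next to Grm2 and needed for processing of ribosomal RNA, was lower in sP (-0.50 ± 0.0575, adjusted p = 2.48e-05). Abhd14a (0.52 ± 0.0703, adjusted p = 0.00013), Abhd14b (0.41, adjusted p = 0.00194), Pcbp4 (0.33, adjusted p = 0.0206) and Rbm15b (0.13, adjusted p = 0.0388) were higher. Rrp9 was at -0.27 ± 0.0666 in P/NP (adjusted p = 0.0539, limma), the pair in which Grm2 had a positive difference. Without P 9 and NP 9 the adjusted p of Rrp9 was 0.00841 (limma), beside 661 of the 31042 probe sets called. In P/NP, HAD2/LAD2 and AA/ANA limma called 0 of the 10, with 1, 0 and 2 at an unadjusted p under 0.05. The shares called over all probe sets were 1.05%, 4.6% and 2.35%.

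**Figure D5:**
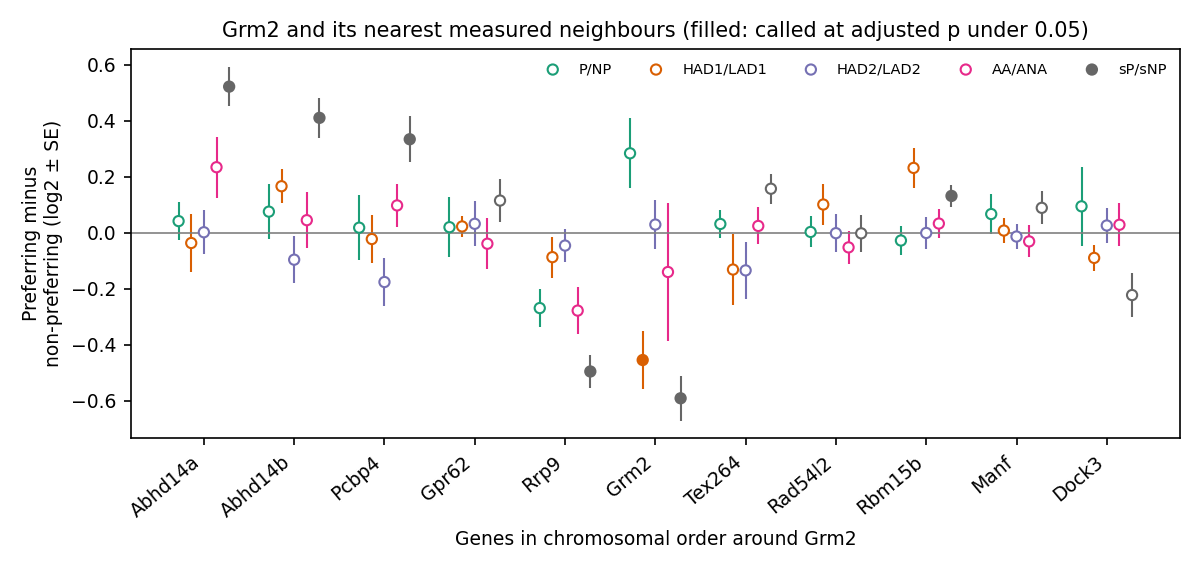
Preferring minus non-preferring difference (log2 ± SE, vertical axis) of Grm2 and its 5 nearest measured genes on each side (horizontal axis, in chromosomal order), with a colour for each line pair; filled points are called at an adjusted p under 0.05. In sP/sNP both Grm2 (-0.59) and Rrp9 (-0.50) are lower while Abhd14a (0.52), Abhd14b (0.41) and Pcbp4 (0.33) are higher; in HAD1/LAD1 only Grm2 is filled.

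Around Grm3, chosen the same way, calls went to other genes. In sP/sNP Cacna2d1, a calcium channel subunit (-0.57 ± 0.159, adjusted p = 0.0316, limma), and Abcb1a, a drug efflux transporter (-0.43 ± 0.0807, adjusted p = 0.00319), were lower in sP, as Grm3 was. Abcb1a was also lower in HAD1 (-0.41, adjusted p = 0.0184) and was higher in HAD2 (0.36, adjusted p = 0.00131). Crot, a carnitine acyltransferase of peroxisomes, was lower in HAD1 (-0.35, adjusted p = 0.0264) and in AA (-0.42, adjusted p = 0.0275). Of the 10 neighbours of Grm3, limma called 2 in sP/sNP, 2 in HAD1/LAD1, 1 in HAD2/LAD2, 1 in AA/ANA and 0 in P/NP. The shares called over all probe sets were 12.9%, 1.2%, 4.6%, 2.35% and 1.05%. In P/NP 0 of the 10 had an unadjusted p under 0.05.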

How the data were processed

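Total RNA was isolated with Trizol and RNeasy kits, and 25 ng per animal was amplified over 2 cycles and labelled with biotin, per the labels' protocols. The deposited values are log2 RMA signals, made by the authors per the submitters' processing notes and used with no further scaling. The RMA version and which arrays were normalized together are not given in the sources used here. All members, gene lists and rules were chosen with earlier results of these data known. Of 31099 probe sets, 57 control probe sets were left out. Each pair was fitted alone with limma 3.58.1 in R 4.3.3 (two-sided, after a test on simulated data), and the average and equality in a fit with 1 mean per line. Called list members are named; a gene counts through its brightest probe set. A departing array lies over 0.3 from its labelled end of a score that is 0 at the non-preferring and 1 at the preferring median of the 50 probe sets that best part the lines in the other animals. Since that score uses the line difference, more calls without these arrays are not independent evidence. Permutations numbered 1e+05. Nothing in the labels says that animals are unrelated. The p-values set each difference against the spread between these animals. If animals of a line were related, that spread, and with it the p-values, could be too small. The number of arrays limits precision.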

Additional observations from a re-analysis of the deposited data

Results flagged for a closer look

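The Grm2 value of 8.78 in AA 17 stood far from the other 9 AA animals, of which the nearest was at 6.73. The gap was 0.697 of the range of the line, above Dixon's 95% critical value for 10 animals. Among the 20 combinations of gene and line tested in this way it was the 1 value past the limit, and chance passes about 1 in 20. The Grm2 difference differed between the 5 line pairs by the test of equality (adjusted p = 0.00955, limma), with values from -0.59 in sP/sNP to 0.28 in P/NP.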

How the results depend on the processing

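Of 125 alternatives other than leaving out 1 animal, 114 kept the direction and the side of the threshold. Grm2 in sP/sNP was called under all alternatives run (-0.69 to -0.55). Grm2 in HAD1/LAD1 lost its call in 1 fit over all 10 lines (-0.45). Grm3 in sP/sNP lost its call with the Gapdh difference (-0.25), the spiny minus pallidal markers (-0.090) or the glutamate neuron markers (-0.17) as covariate. Grm3 changed sign with markers as covariate in HAD1/LAD1 (0.0020 with the spiny minus pallidal and 0.00012 with the glutamate neuron markers) and in P/NP (0.040 with the latter). Grm2 in AA/ANA gained a call without AA 17, AA 19 and ANA 20 (-0.42), and without AA 17 with the spiny minus pallidal markers as covariate (-0.39). The Grm2 average gained one without AA 17 and the departing arrays (-0.26) and with the glutamate neuron markers as covariate (-0.28). Fits with the glutamate neuron markers as covariate were not planned, so calls gained or lost in them are not independent evidence. AA 17 was set aside after its Grm2 value had been seen, and it also lay far out on the glutamate neuron markers. The causes were not tested. With 1 animal left out, Grm2 ran from -0.51 to -0.42 in HAD1/LAD1, from -0.017 to 0.076 in HAD2/LAD2 (negative without HAD2 2), and from -0.39 to -0.062 in AA/ANA, and its average was -0.22 without AA 17. Grm3 ran from -0.070 to 0.021 in HAD1/LAD1 (positive without LAD1 31), from -0.018 to 0.050 in AA/ANA (negative without ANA 4) and from -0.32 to -0.25 in sP/sNP. Leaving out dim probe sets removed Grm2, so it has no value there. Animal numbers are shared only in P/NP and sP/sNP. Deviations of same-numbered animals correlated from -0.591 to 0.774 in P/NP (6 of 10 over 0.1) and from -0.22 to 0.56 in sP/sNP (5 of 9), so the numbers were not taken as pairs; 4 of 10 and 2 of 9 animals correlated best with their own number. With the number as a replicate block, Grm2 was at 0.28 (adjusted p = 0.453) in P/NP and -0.59 (adjusted p = 0.00135) in sP/sNP, and Grm3 at -0.08 (adjusted p = 0.956) and -0.29 (adjusted p = 0.0131). The block moved the calls over all probe sets from 326 to 197 in P/NP and from 4006 to 5035 in sP/sNP. Scaling moved the median difference of all probe sets by at most 0.0124 in any pair.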
